A study of Arabidopsis thaliana with 88 samples.

Results

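The 42 genes described here act in the growth of Arabidopsis root hairs and in building or loosening the hair wall. They were taken as a given list of gene codes that was drawn up from known root hair genes with earlier results of these data in view, and no measured value enters the list as a rule. All 42 were among the 33681 genes with counts, and all 42 were among the 20347 genes that passed the filter on low counts, which they passed through the roots where they are high. By role, 5 loosen or remodel the wall, 3 make wall polysaccharides, 5 are structural wall proteins other than classical extensins, 11 are extensins, 3 handle reactive oxygen, 10 act in polarity and signalling, and 5 are transporters or proteins of other kinds. Of the 42, 17 carry the name ROOT HAIR SPECIFIC (RHS).

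RNA came from rhd6-3/rsl1-1, esb1-1, sos3-2 and chx25-3 plants and from wild-type Col-0, each as neo-tetraploids (4x) and as their diploid progenitors (2x). Of 88 libraries, 86 fell into 30 groups of 2 or 3 libraries by organ, medium, genotype and ploidy, and 57 of these 86 came from roots. Plate roots came from plants of 2 weeks on 1/2 MS agar with sucrose, and soil roots and soil shoots from plants of 5 weeks on peat soil. The study set 4x roots against 2x roots in soil-grown wild type, esb1-1 and sos3-2. It had found that both mutants suppress the ploidy effect on leaf potassium. Genes still different between the ploidies in these mutants were removed from its list. Its data statement says that the plate samples, rhd6-3/rsl1-1 and the line called chx25-3 here are extra and are not described in the study. The rhd6-3/rsl1-1 line lacks a pair of redundant transcription factor genes, ROOT HAIR DEFECTIVE 6 (RHD6) and RHD SIX-LIKE 1 (RSL1), that start the root hair program. The esb1-1 line lacks a protein needed for the Casparian strip of the endodermis, and sos3-2 lacks a calcium sensor of salt signalling. The name chx25-3 is that of the labels. The gene and allele of this line are named differently in the data statement of the study. All 4x lines derive from colchicine treatment, and the wild-type pair was made for earlier work. Plate libraries are pools of plants, whereas each soil library stands for 1 plant. The fit takes the spread of a gene within groups over all 86 libraries together. Each p-value therefore measures a spread pooled over plate pools and single soil plants, roots and shoots alike.

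A root hair is the outgrowth of 1 epidermal cell. RHD6 and RSL1 switch on the later regulators RSL2, RSL4 and LRL3, which in turn act on the genes that drive outgrowth. A small GTPase domain of the plasma membrane marks the site, NADPH oxidase and peroxidases set the redox state of the wall, expansins and xyloglucan enzymes let the wall yield, and secreted extensins and proline-rich proteins strengthen the new tube. Loss of single members of this set gives short, burst, branched or misplaced hairs in this species.

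A short promoter motif known as the root hair element links many of these genes. It was searched by name on both strands in the 500 bases before each annotated start in the TAIR10.1 assembly. The motif lay in 19 of the 42 promoters (45.2%), against 400 of 27443 protein-coding genes (1.46%). The RHS genes were in part found through this motif, so the share of the members is a description of the list. By role, it lay in 3 of 5 wall loosening genes, 1 of 3 wall synthesis genes, 5 of 5 structural wall proteins, 0 of 11 extensins, 2 of 3 reactive oxygen genes, 3 of 10 polarity and signalling genes, and 5 of 5 transport and other genes. The lines that follow show the motif in capitals with its flanks, 5′ to 3′ on the strand of the gene, for members whose values are described below. RefSeq's TAIR10.1 assembly is the source of the letters.
EXPA7: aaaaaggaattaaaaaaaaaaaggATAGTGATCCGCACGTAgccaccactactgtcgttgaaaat
EXPA18: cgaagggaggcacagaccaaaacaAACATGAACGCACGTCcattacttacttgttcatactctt
PRP3: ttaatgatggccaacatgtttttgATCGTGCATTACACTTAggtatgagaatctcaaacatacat
PRP1: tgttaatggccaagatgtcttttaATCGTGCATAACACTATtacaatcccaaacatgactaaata
LRX1: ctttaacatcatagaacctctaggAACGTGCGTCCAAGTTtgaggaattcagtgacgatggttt
RHS19: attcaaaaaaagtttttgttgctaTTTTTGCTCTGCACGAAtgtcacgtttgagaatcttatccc
RHS11: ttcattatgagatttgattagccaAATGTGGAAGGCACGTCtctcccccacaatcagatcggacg
RHS17: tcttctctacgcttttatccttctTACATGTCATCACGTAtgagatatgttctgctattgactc

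All 8 genes lie on the plus strand, and none of the windows reaches past the annotated start of its gene. The windows are chr1:4276403-4276467 for EXPA7, chr1:23331499-23331562 for EXPA18, chr3:23182531-23182595 for PRP3 and chr1:20504748-20504812 for PRP1. Those of the other 4 genes are chr1:4069875-4069938 for LRX1, chr5:26894334-26894398 for RHS19, chr2:18883296-18883360 for RHS11 and chr4:17975427-17975490 for RHS17. The motif runs in the direction of the gene in 5 of these promoters and in the opposite direction in PRP1, PRP3 and LRX1. Its near end stood 62 bases before the start of EXPA7, 25 before EXPA18, 113 before PRP1, 151 before PRP3, 78 before LRX1, 404 before RHS19, 41 before RHS11 and 310 before RHS17.

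Total counts per library ran between 3292996 and 10246421 in plate roots. The soil root libraries held 5850010 to 10435932 counts and the shoot libraries 4698913 to 8635531. Transcripts of the mutated genes were checked in CPM, which are counts relative to library size: ESB1 had 0 to 0.929 CPM in esb1-1 plate roots, against 161 to 380.4 CPM in wild-type plate roots. RHD6 had 1.65 to 4.35 CPM in rhd6-3/rsl1-1 plate roots, against 5.57 to 7.91 CPM in wild-type plate roots, so reads of the 3′ end of RHD6 remained in the mutant. In soil roots RHD6 overlapped between the mutant, at 0.422 to 3.36 CPM, and wild type, at 1.15 to 2.88 CPM. RSL1 overlapped in both root sets, at 0.254 to 0.702 CPM in mutant plate roots, against 0.669 to 2.16 CPM in wild type, and at 0 to 0.746 CPM in mutant soil roots, against 0.279 to 0.842 CPM in wild type. SOS3 had 0.797 to 2.098 CPM in sos3-2 plate roots, against 6.71 to 10.89 CPM in wild type, and 1.45 to 3.35 CPM in sos3-2 soil roots, against 4.55 to 8.66 CPM in wild type. The summed level of 5 leaf genes was 15.2 to 137 CPM in soil roots and 85.4 to 182 CPM in plate roots, against 42470 to 80310 CPM in soil shoots.

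In wild type with both ploidies averaged, 40 of 42 members were higher in soil roots than in soil shoots. The members were listed as root hair genes and passed the filter through the roots, so this count describes the list. The 2 that were not called were SCN1, a RhoGDP dissociation inhibitor that keeps hair outgrowth to 1 site, and RHS4, a protein of unknown function. Calls here and below required a log2 fold change of 0.5 or more in size and an edgeR quasi-likelihood p that stayed under 0.05 after Benjamini-Hochberg adjustment over all genes tested. Of all genes tested, 34.9% were called higher in this comparison. The median log2 fold change of the members was 6.27. Limma-voom called 32 higher and turned 2 rare kinase transcripts, RHS6 and IRE, to lower. The proline-rich protein PRP3 had 0 counts in every wild-type shoot library. SCN1 was at 61.5, 71.9 and 64.4 CPM in the 2x soil roots and 64.2, 64.3 and 62.2 CPM in the 4x soil roots, against 42.04, 61.95 and 49.02 CPM in the 2x shoots and 44.6, 44.9 and 53.9 CPM in the 4x shoots. RHS4 was at or below 2.44 CPM in all 12 of these libraries.

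On the scale of TPM, which Salmon divides by effective length, the members spanned more than 3 orders of magnitude in 2x wild-type plate roots. Extensin AT3G28550 stood at 1164 ± 741 TPM, RHS13, a structural wall protein, at 351.7 ± 204 TPM, extensin AT4G13390 at 304.2 ± 208 TPM and PRP3 at 281 ± 99.01 TPM (SD, n = 3 each). AT3G28550 had the highest mean. These 4 genes were read in the same 3 libraries, so overlap of mean ± SD cannot judge a difference between genes. Before division by length, AT3G28550 had 21805, 19026 and 52010 counts in these libraries, against 2349, 1594 and 4504 for RHS13. The order of the genes was not tested. At the low end, IRE, an AGC-family protein kinase of hair elongation, stood at 0.527 ± 0.256 TPM. In 2x wild-type soil roots AT3G28550 stood at 213.7 ± 31.5 TPM, extensin AT1G23720 at 107.3 ± 27.2 TPM and RHS13 at 74.1 ± 4.69 TPM (SD, n = 3 each). The libraries read only the 3′ end of each transcript, so division by length can misstate levels between genes.

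**Figure D1:**
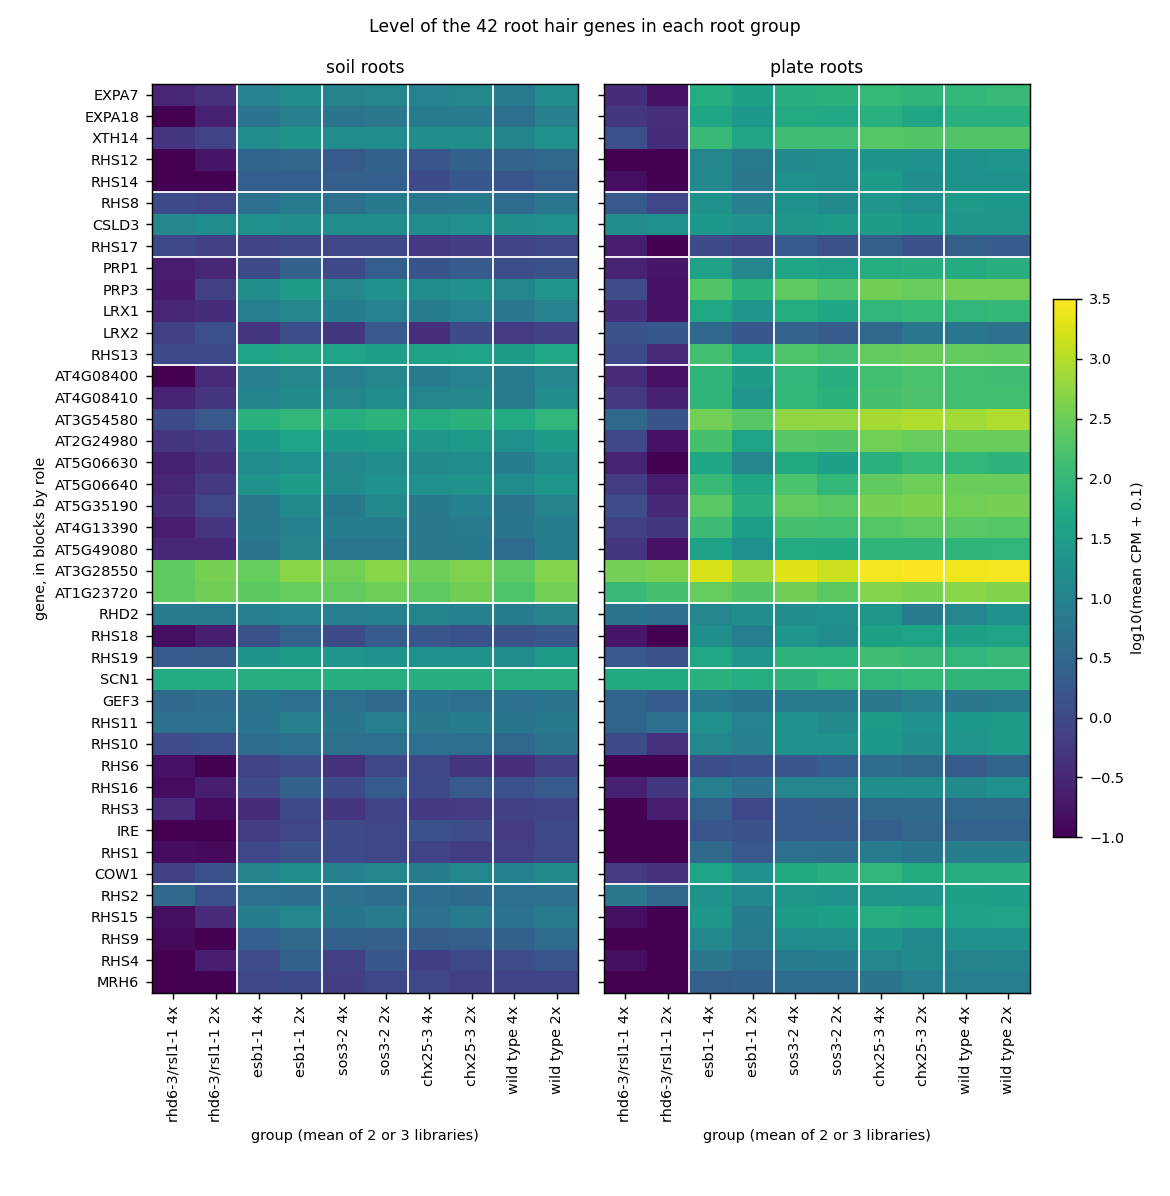
Mean level of each of the 42 members (rows, by role) in each group of roots (columns: soil roots on the left, plate roots on the right, each genotype 4x then 2x), coloured by log10 of mean CPM plus 0.1. The rhd6-3/rsl1-1 columns are the darkest (lowest) for most rows in both media, while AT3G28550 and AT1G23720 stay bright and CSLD3 and SCN1 keep a similar shade in every column.

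Between the media, most members were far lower in wild-type soil roots than in wild-type plate roots. Averaged over both ploidies, 39 of 42 were called lower, with a median log2 fold change of -3.05 against 0.044 over all genes tested. Of all genes tested, 22.5% were called lower in this comparison. The libraries of the 2 media did not overlap for 38 of 42 members (19.3% of all genes tested had all soil roots below all plate roots). The soil and plate plants differed in age as well as in medium, and age and medium cannot be told apart. With the library number as a covariate 21 members were called.

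The largest fall was that of PRP1, a proline-rich wall protein. It had 2.17, 0.093 and 1.32 CPM in 2x soil roots and 1.83, 1.16 and 0.337 CPM in 4x soil roots, against 61.2, 45.99 and 98.3 CPM in 2x plate roots and 64.1, 30.8 and 83.7 CPM in 4x plate roots. Every soil library was below every plate library, and the log2 fold change was -5.78 (SE 0.46; edgeR adjusted p = 2.68e-15). Extensin AT5G35190 (-5.61, SE 0.39), extensin AT4G13390 (-5.04, SE 0.40) and PRP3 (-4.45, SE 0.35) followed in size. The expansin EXPA7, which loosens the wall of the growing hair, fell by 3.37 on the log2 scale (SE 0.28; adjusted p = 3.43e-17), and its close relative EXPA18 fell by 3.505. The xyloglucan endotransglucosylase XTH14 fell by 3.70, the leucine-rich repeat extensin LRX1 by 3.65, the peroxidase RHS19 by 2.29, the phosphatidylinositol transfer protein COW1 by 2.60 and IRE by 1.81. The NADPH oxidase RHD2, which makes the reactive oxygen of the hair tip, fell less, by 0.78 (adjusted p = 0.0235), and extensin AT1G23720 fell by 0.90 (adjusted p = 0.00675). The 3 members not called were CSLD3, a cellulose synthase-like enzyme (-0.46, adjusted p = 0.0134), SCN1 (-0.44, adjusted p = 0.00145) and GEF3, the exchange factor that marks the hair site (-0.40, adjusted p = 0.0678). CSLD3 and SCN1 passed the p threshold but not the fold threshold.

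Part of the regulators and of the wider set of hair genes fell as well. Of 10 regulators tested, 6 fell in soil roots (RHD6, RSL1, RSL2, RSL4, LRL3 and GL2). The fall of GL2 was the smallest of these, at -0.65 on the log2 scale. LRL1, LRL2, CPC and WER were not called, with LRL1 and WER at positive values. Of 18 other hair growth genes, 11 fell and 1, the GTPase gene ROP6, rose. Markers of other root cells moved too: of 10, HORST, GPAT5 and ASFT of the suberized endodermis fell, and SHR of the stele and CO2 of the cortex rose. Of 5 leaf genes, 4 were lower in soil roots. The part of these shifts in the fall of the members was not tested.

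In rhd6-3/rsl1-1 plate roots, nearly all members were lower than in wild type, most of them to near 0. Of 42 members, 39 were called lower in the 2x mutant and 40 in the 4x mutant, and 0 were called higher in either. Of all genes tested, 1.93% were called lower in 2x and 1.98% in 4x plate roots. The median log2 fold change of the members was -8.98 in 2x and -7.65 in 4x plate roots, or -6.56 and -7.04 with genes at 3 counts or fewer set to their bound, while the median over all genes tested was 0 in 2x and -0.01 in 4x. All mutant libraries lay below all wild-type libraries for 42 of 42 members in both ploidies (15.8% of all genes tested in 2x and 12.6% in 4x). Plate libraries are numbered group by group, so that 99.2% of the variance of the library number lay between groups, and with that number as a covariate 22 members were called lower in 2x and 23 in 4x. In bulk roots, fewer hair cells and less RNA per hair cell cannot be told apart.

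Among the wall loosening genes, all 5 fell in both ploidies. EXPA7 had 0 and 0.127 CPM in 2x mutant plate roots, against 102, 74.99 and 161 CPM in 2x wild type. In 4x plate roots it had 0.109, 0.617 and 0.14 CPM in the mutant, against 89.5, 60.4 and 132 CPM in wild type. All 5 mutant libraries lay below 1 CPM, far from every wild-type library. The 2x mutant libraries held 1 count of EXPA7 in all, which gives a ratio of 1490-fold lower with a 95% counting interval of 268 to 59100 (edgeR adjusted p = 3.3e-17). In 4x the log2 fold change was -8.38 (SE 0.58; adjusted p = 2.22e-20). Folds given here and below are ratios of the pooled counts over the pooled library sizes, whereas log2 fold changes come from the fit, and the 2 can differ for rare transcripts.

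EXPA18 had 0 and 0.636 CPM in 2x mutant plate roots, against 74.2, 54.0 and 86.8 CPM in 2x wild type. XTH14 had 0.182 and 0.382 CPM in the 2x mutant, against 145, 121 and 294 CPM in 2x wild type. Both genes were thus below 1 CPM in each 2x mutant library, and their log2 fold changes were -7.56 (SE 0.66) and -9.22 (SE 0.79). In 4x plate roots XTH14 had 0.435, 1.85 and 1.12 CPM in the mutant, against 206, 97.4 and 271 CPM in wild type (log2 fold change -7.44, SE 0.57). The pectin methylesterase family gene RHS12, with the largest fitted fall in 4x plate roots, had 0 CPM in all 3 mutant libraries, against 21.05, 14.5 and 23.5 CPM in wild type. With a floor of 3 counts over the group, it was at least 148-fold lower in the 4x mutant (adjusted p = 6.93e-14). The pectate lyase family gene RHS14 also had 0 counts in the 2x mutant, at least 92.1-fold lower.

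Wall synthesis was split. RHS8, the glycosyltransferase XUT1 of xyloglucan side chains, was 33-fold lower in the 2x mutant, and RHS17, an O-fucosyltransferase family gene, had 0 counts there. CSLD3 had 20.7 and 14.8 CPM in 2x mutant plate roots, against 22.8, 27.6 and 22.2 CPM in 2x wild type. The 4x plate libraries had 14.3, 18.98 and 15.6 CPM in the mutant, against 26.4, 23.4 and 20.8 CPM in wild type. The mutant libraries were lower in both ploidies with no overlap, but at log2 fold changes of only -0.45 in 2x (SE 0.26; edgeR adjusted p = 0.442) and -0.53 in 4x (SE 0.23; adjusted p = 0.274). CSLD3 was the 1 member called in none of the 4 rhd6-3/rsl1-1 root comparisons.

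Structural wall proteins and extensins gave the largest ratios. PRP3 had 0 and 0.127 CPM in 2x mutant plate roots, against 294, 244 and 489 CPM in 2x wild type. In 4x plate roots it had 0.109, 2.31 and 0.702 CPM in the mutant, against 375, 188 and 520.2 CPM in wild type. The highest mutant library was thus far below the lowest wild-type library. The 2x ratio was 4520-fold, on 1 mutant count, with a counting interval of 811 to 179000, and the 4x log2 fold change was -8.52 (SE 0.64; edgeR adjusted p = 3.05e-18). LRX1, which shapes the wall of the growing hair, had 0 and 0.127 CPM in the 2x mutant, against 74.9, 64.5 and 153 CPM in wild type. LRX1 in 4x plate roots fell by 8.34 on the log2 scale (SE 0.57). Its relative LRX2 did not pass the test in 2x (-1.56, SE 0.64; adjusted p = 0.231) and passed it in 4x (-2.10; adjusted p = 0.0186).

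Extensins are hydroxyproline-rich glycoproteins that cross-link into a wall network. All 11 were called lower in 4x plate roots and 10 of 11 in 2x. Extensin AT4G13390 had 0.364 and 0.509 CPM in the 2x mutant, against 129, 118 and 380 CPM in wild type. In 4x plate roots it had 0.109, 1.54 and 0.281 CPM in the mutant, against 229, 104.8 and 332 CPM in wild type. The groups were far apart in both ploidies, with log2 fold changes of -8.82 (SE 0.89; edgeR adjusted p = 8.49e-12) in 2x and -8.52 (SE 0.71; adjusted p = 3.72e-15) in 4x. AT5G06630, with the largest fitted fall in 2x plate roots, had 0 counts in both mutant libraries, against 47.7, 56.9 and 149 CPM in wild type, at least 363-fold lower. Its neighbour AT5G06640 fell by 9.23 on the log2 scale in 4x plate roots (SE 0.62; adjusted p = 2.86e-21).

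A pair of extensins kept a sizeable level in the mutant. AT3G28550 had 306 and 503 CPM in 2x mutant plate roots, against 1621, 1786 and 4903 CPM in 2x wild type, and 342, 281 and 445 CPM in the 4x mutant, against 2680, 1653 and 3364 CPM in 4x wild type. AT1G23720 had 105.8 and 210.1 CPM in the 2x mutant, against 361, 454 and 539 CPM in 2x wild type, and 132, 83.6 and 124 CPM in the 4x mutant, against 492, 454 and 566 CPM in 4x wild type. Both stayed clear of their wild-type ranges, with falls of 2.78 (SE 0.55; edgeR adjusted p = 0.000489) and 1.51 (SE 0.48; adjusted p = 0.074, not called) in 2x. In 4x the log2 fold changes were -2.85 (SE 0.47) and -2.16 (SE 0.42). These 2 genes made up 80.6 to 88.9% of the summed CPM of the 42 members in the 2x mutant plate libraries, against 37.1 to 45.2% in 2x wild type. Without them, the other 40 members summed to 89.5 to 99.1 CPM in the 2x mutant, against 2984 to 6588 CPM in 2x wild type. For 7 extensins, 27 to 56 of the 88 libraries held a fractional count (tolerance 0.01), which marks reads shared between similar transcripts, so single extensin values are uncertain.

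**Figure D2:**
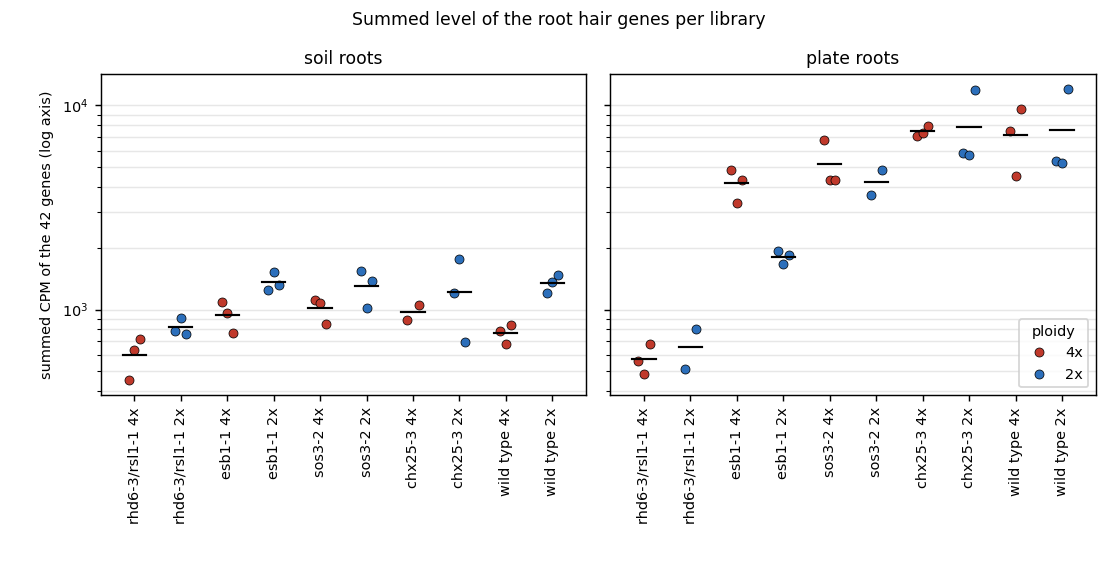
Summed CPM of the 42 members in each root library (dots) with the group mean (line), on a log axis, 4x in red and 2x in blue. The rhd6-3/rsl1-1 plate libraries lie between 483 and 803 CPM, the 2x esb1-1 plate libraries between 1674 and 1930 CPM, and wild-type plate libraries between 4510 and 12030 CPM.

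Reactive oxygen genes did not move as a block. The peroxidase RHS19 had 2.00 and 0.382 CPM in 2x mutant plate roots, against 87.1, 71.5 and 167 CPM in 2x wild type. In 4x plate roots it had 1.30, 2.62 and 1.26 CPM in the mutant, against 92.5, 52.8 and 134 CPM in wild type. That is a wide gap, at log2 fold changes of -6.60 (SE 0.65; edgeR adjusted p = 4.26e-12) and -5.76 (SE 0.51; adjusted p = 3.32e-14). RHD2 had 3.45 and 5.34 CPM in the 2x mutant, against 30.2, 22.7 and 8.86 CPM in 2x wild type. The 4x plate libraries had 6.63, 4.47 and 5.05 CPM in the mutant, against 11.6, 12.1 and 10.91 CPM in wild type. The mutant was lower in both, with the test passed in 2x (-2.21, SE 0.53; adjusted p = 0.00644) and not in 4x (-1.09, SE 0.44; adjusted p = 0.229). The 2x call for RHD2 rests on single libraries: without replicate 1 of wild type the log2 fold change was -1.82, and without replicate 1 of the mutant it was -1.95, and neither passed.

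All 10 polarity and signalling genes fell in both ploidies on plates. COW1, which shapes phosphoinositides at the tip, had 0.182 and 0.509 CPM in the 2x mutant, against 66.3, 58.1 and 84.8 CPM in wild type, and 0.435, 1.08 and 0 CPM in the 4x mutant, against 69.1, 38.6 and 85.98 CPM in wild type. The groups were far apart, with log2 fold changes of -7.50 (SE 0.74; edgeR adjusted p = 1.88e-12) and -7.003 (SE 0.59; adjusted p = 1.39e-15). IRE had 0 CPM in all 5 mutant plate libraries, against 3.49, 2.53 and 1.32 CPM in 2x wild type and 1.97, 2.88 and 2.61 CPM in 4x wild type. IRE is rare in wild type too, and was at least 11.3-fold lower in 2x (adjusted p = 0.000291) and at least 18.9-fold lower in 4x (adjusted p = 3.23e-06).

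The genes that mark the site of outgrowth fell less. GEF3 had 2.91 and 1.02 CPM in the 2x mutant, against 8.62, 5.07 and 8.01 CPM in 2x wild type, and 1.74, 2.78 and 3.79 CPM in the 4x mutant, against 7.45, 4.15 and 6.71 CPM in 4x wild type. The ranges came close without overlap, and the falls were 1.94 (SE 0.35; edgeR adjusted p = 9.43e-05) and 1.15 (SE 0.29; adjusted p = 0.00927) on the log2 scale. In 87 of 88 libraries the GEF3 count was fractional, so some of its reads also fit another gene. Leaving out single libraries ended the GEF3 call in 4x, at -0.98 without wild-type replicate 1, -1.08 without wild-type replicate 3 and -0.89 without mutant replicate 1, and in 2x at -1.31 without mutant replicate 2. SCN1 had 57.8 and 50.9 CPM in the 2x mutant, against 83.8, 79.9 and 99.9 CPM in 2x wild type. It was 1.63-fold lower in 2x (adjusted p = 0.0307) and 1.67-fold lower in 4x (adjusted p = 0.00407), the smallest falls among the called members in both ploidies. The second exchange factor of the list, RHS11, was 6.19-fold lower in 2x, and the receptor-like kinase RHS10 (PERK13) 69.7-fold lower.

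The 5 transport and other genes fell in both ploidies. RHS15, of the glycerol-3-phosphate permease family, had 0 counts in the 2x mutant and was at least 172-fold lower. RHS9, of the methylesterase family, was at least 88.8-fold lower there and RHS4 at least 47.9-fold lower. MRH6, of the universal stress protein family, was at least 36.8-fold lower, and RHS2, of the MATE transporter family, 10.4-fold lower.

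In soil roots the same mutant lost fewer members, and the losses were smaller in size. Of 42 members, 30 were called lower in the 2x mutant and 27 in the 4x mutant, and 0 higher in either. The background was 0.6% of all genes tested called lower in 2x and 0.491% in 4x. The median log2 fold change of the members was -4.16 in 2x and -4.38 in 4x, or -3.64 and -3.70 with genes at 3 counts or fewer set to their bound. The mutant libraries lay below all wild-type libraries for 33 members in 2x (5.58% of all genes tested) and for 32 in 4x (6.43%). Across the 4 comparisons of plate and soil, 27 members were lower in all 4. At most 0.491% of all genes tested, the share called lower in 4x soil roots, can have this pattern.

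EXPA7 had 0.211, 0.719 and 0.0937 CPM in 2x mutant soil roots, against 16.9, 14.2 and 12.8 CPM in 2x wild type. In 4x soil roots it had 0, 0.494 and 0.124 CPM in the mutant, against 6.60, 8.78 and 5.05 CPM in wild type. All 6 mutant libraries lay below all wild-type libraries, and the log2 fold changes were -5.44 in 2x (SE 0.53; edgeR adjusted p = 1.4e-12) and -5.20 in 4x (SE 0.59; adjusted p = 3.7e-10). PRP3 had 1.16, 0.719 and 0 CPM in the 2x mutant, against 21.5, 21.1 and 23.7 CPM in wild type, and 0.342, 0 and 0 CPM in the 4x mutant, against 13.8, 10.4 and 11.03 CPM in wild type. Its log2 fold changes were -5.15 (SE 0.59) in 2x and -6.09 (SE 0.70; adjusted p = 8.15e-10) in 4x. The members with the largest fitted falls had 0 counts in the mutant: RHS9 in 2x, against 5.68, 3.07 and 2.06 CPM in wild type (at least 33.8-fold lower), and extensin AT4G08400 in 4x, against 9.35, 5.61 and 5.22 CPM in wild type (at least 69-fold lower).

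RHS19 in soil had 2.11, 1.92 and 2.06 CPM in the 2x mutant, against 28.96, 29.01 and 26.3 CPM in wild type, and 1.91, 1.61 and 2.36 CPM in the 4x mutant, against 16.3, 15.3 and 13.3 CPM in wild type. The replicates were tight and the gap clear, at log2 fold changes of -3.78 (SE 0.46; edgeR adjusted p = 1.47e-08) and -2.93 (SE 0.46; adjusted p = 9.24e-06). COW1 had 1.69, 1.80 and 0.375 CPM in the 2x mutant, against 17.3, 11.9 and 10.2 CPM in wild type (log2 fold change -3.37, SE 0.49; adjusted p = 1.36e-06). EXPA18 had 0 CPM in all 3 libraries of the 4x mutant, against 4.77, 5.40 and 3.12 CPM in wild type, at least 44.5-fold lower. IRE also had 0 CPM in all 6 mutant soil libraries, and passed the test in 2x (at least 8.66-fold lower; adjusted p = 0.00279) but not in 4x, where wild type held 17 counts in all (at least 5.41-fold lower; adjusted p = 0.0503).

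8 members were called lower in both plate comparisons and in neither soil comparison: RHS17, PRP1, AT3G28550, SCN1, GEF3, RHS11, RHS3 and RHS2. The share of all genes tested with this pattern was not counted. A missing call in soil does not mean an unchanged level. In 2x soil roots PRP1 kept 14.5%, RHS2 23.1% and RHS3 at most 15.6% of the wild-type level, and the others 71.8 to 90.4%. In 4x soil roots PRP1 kept at most 8.98%, RHS2 75.4% and RHS3 33.3%. AT3G28550 had 378, 461 and 286 CPM in 2x mutant soil roots, against 403, 457 and 512 CPM in 2x wild type, and 212, 236 and 304 CPM in the 4x mutant, against 236, 174 and 321 CPM in 4x wild type. The ranges overlapped in both ploidies, and the log2 fold changes were -0.28 (SE 0.44) in 2x and 0.04 (SE 0.44) in 4x. GEF3 had 3.38, 3.72 and 4.59 CPM in the 2x mutant, against 5.32, 6.32 and 4.29 CPM in wild type, also with overlap (log2 fold change -0.44, SE 0.27; edgeR adjusted p = 1). RHD2 had 8.77, 4.68 and 8.25 CPM in the 2x mutant, against 10.6, 10.2 and 10.14 CPM in wild type (-0.51, SE 0.43; adjusted p = 1). CSLD3 had 18.4, 14.4 and 14.1 CPM in the 2x mutant, against 18.5, 19.4 and 15.3 CPM in wild type (-0.18; adjusted p = 1). PRP1, at or below 2.17 CPM in all wild-type soil roots, gave -2.64 in 2x without passing the test (adjusted p = 0.605). With both ploidies averaged, PRP1 was called lower in mutant soil roots.

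The difference between the media was tested directly as the plate effect minus the soil effect of the mutant, averaged over ploidies. It was called negative, a deeper fall on plates, for 21 of 42 members, and positive for 0 (0.757% of all genes tested were called negative). The median difference was -3.54 on the log2 scale. Among these were 9 of 11 extensins and 4 of 5 structural wall proteins. The difference was -4.01 (SE 0.85; edgeR adjusted p = 0.00306) for EXPA7, -4.58 (SE 0.99; adjusted p = 0.00375) for PRP3, -4.31 (SE 0.83; adjusted p = 0.000718) for LRX1 and -5.60 (SE 0.83; adjusted p = 7.17e-06) for extensin AT5G35190. It was -3.67 (SE 0.62) for COW1, -2.83 (SE 0.49) for RHS19, -2.69 (SE 0.47) for AT3G28550 and -3.40 (SE 0.47; adjusted p = 3.8e-07) for RHS10. It was not called for EXPA18 (-0.46), CSLD3 (-0.14), RHD2 (-1.29; adjusted p = 0.22), GEF3 (-1.09; adjusted p = 0.0525), SCN1 (-0.55; adjusted p = 0.145) and AT4G13390 (-3.76; adjusted p = 0.13). For 8 members the fit gave no usable standard error. In all, 15 members had 0 counts in at least 1 of the 4 mutant root groups, RHS17 and AT5G06630 of the called ones among them, and their fitted difference is no bound. Beside this difference stand the wild-type levels given above, lower in soil than on plates for 39 members. Mutant levels were near 0 in both media for most members but, among the called ones, not for AT3G28550, AT1G23720 and RHS11. RHS11 had mutant means of 4.23 CPM in 2x and 2.70 CPM in 4x plate roots, and 4.78 and 4.59 CPM in soil. The part of these wild-type and mutant levels in the difference was not tested. With the library number as a covariate 0 members were called, with the 11 extensins summed into 1 feature 13, and by limma-voom 36.

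As a share of the wild-type level, the same data read as follows, with 3 counts put in place of 3 or fewer pooled mutant counts, so that such a share is an upper bound. This applied to 23 members in 2x and 13 in 4x plate roots, and to 9 in 2x and 15 in 4x soil roots. In 2x plate roots 21 members kept under 1% of wild type, 12 stood at 1 to 10%, 7 at 10 to 50% and 2 at 50% or more. In 2x soil roots the counts in these classes were 0, 24, 9 and 9. In 4x they were 23, 10, 7 and 2 on plates and 0, 24, 8 and 10 in soil. The median share was at most 1.04% on plates and at most 7.47% in soil in 2x, and at most 0.753% on plates and at most 7.67% in soil in 4x. A bound also moves with the level in wild type, which was lower in soil, so the order of the media was read only over members with more than 3 counts in both mutant groups. Of 19 such members in 2x, the share left was higher in soil than on plates for 19, and of 25 in 4x it was higher in soil for 24 and equal for 1. As wild type was lower in soil, this filter drops members with a low share there, such as EXPA18 in 4x, with 10 counts on plates and 0 in soil. The order among the members kept was thus in part fixed by the filter and describes those members only.

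**Figure D3:**
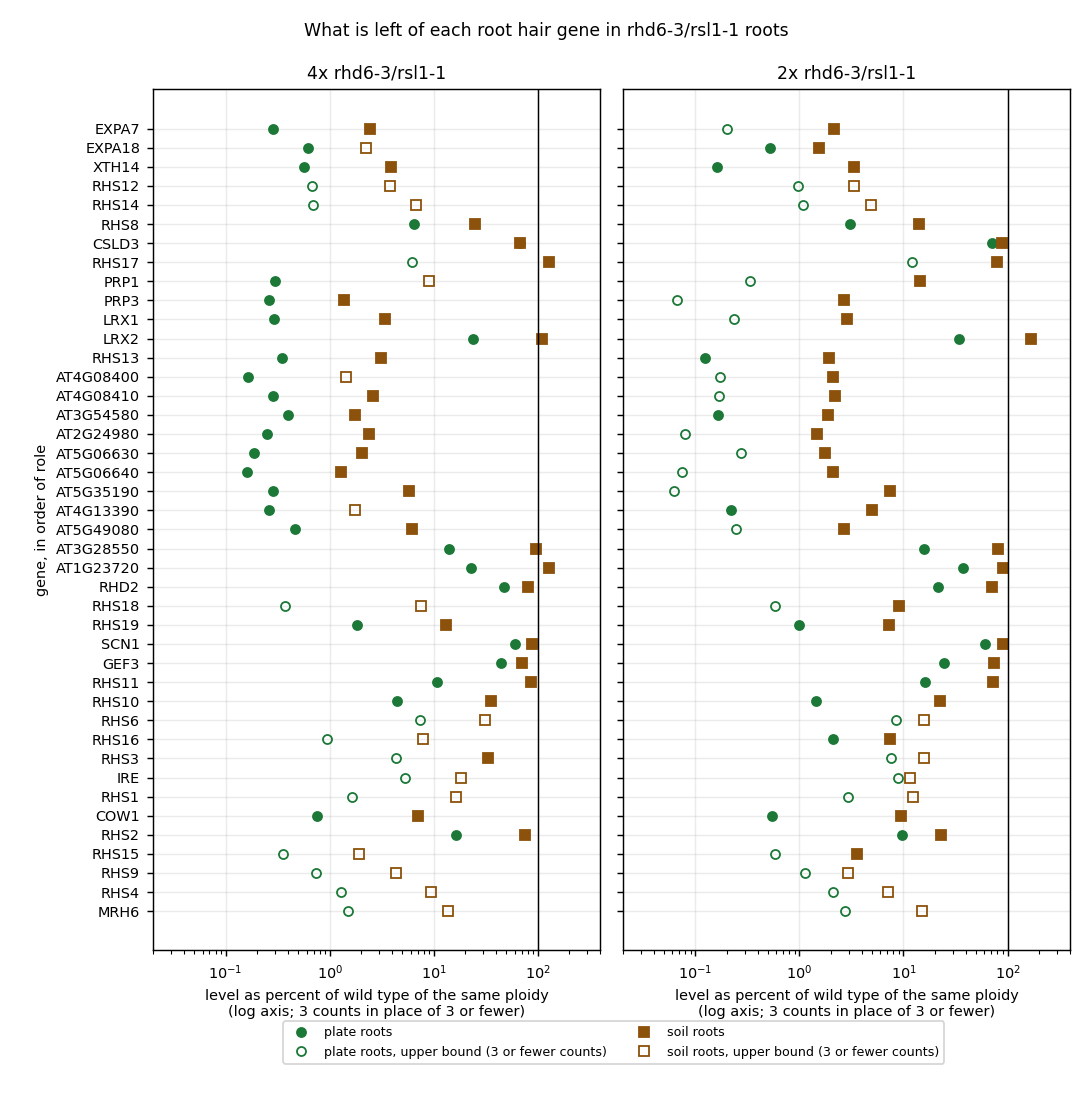
Level of each member in rhd6-3/rsl1-1 roots as a percent of wild type of the same ploidy, on a log axis, 4x on the left and 2x on the right, with circles for plate roots and squares for soil roots. Open symbols are upper bounds, drawn with 3 counts where the mutant group held 3 or fewer. On plates 23 symbols in 4x and 21 in 2x lie below 1%, no soil symbol does, and CSLD3 and SCN1 lie at or above 50% in each case.

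Outside the list, the mutant lost the regulators RSL2, RSL4 and LRL3 in 2x plate roots, RHD6, RSL2, RSL4 and LRL3 in 4x plate roots, and RSL2 and LRL3 in soil roots of both ploidies, of 10 regulators tested. With both ploidies averaged, RSL4 was called lower in soil roots too (log2 fold change -2.17, SE 0.54; edgeR adjusted p = 0.022). Of 18 other hair growth genes, 9 fell in 2x and 7 in 4x plate roots, 5 in 2x and 3 in 4x soil roots. PRPL1, AGP3 and AHA7 were lower in all 4 comparisons. RSL2 had 0.182 and 0 CPM in 2x mutant plate roots, against 40.7, 23.8 and 15.4 CPM in wild type. No leaf gene of 5 and no marker of other root cells of 10 was called in any of the 4 comparisons (1 marker of other root cells, in 2x plate roots, had an unadjusted p under 0.05). In soil shoots 0 of 42 members were called in the mutant in either ploidy (3 in 2x and 1 in 4x at an unadjusted p under 0.05, as had 5.9% and 13.5% of all genes tested; 0.0836% and 0.663% of all genes tested were called in either direction). Of the regulators, RHD6 itself was called higher in 4x mutant shoots (log2 fold change 5.59, SE 1.33; edgeR adjusted p = 0.0292). In 2x mutant shoots it was not called (5.59, SE 1.45; edgeR adjusted p = 0.22).

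In esb1-1 plate roots most members were lower than in wild type. With both ploidies averaged, 36 of 42 were called lower and 0 higher, at a median log2 fold change of -1.29 (2.54% of all genes tested were called lower). All wall loosening genes (5 of 5), structural wall proteins (5 of 5), extensins (11 of 11) and transport and other genes (5 of 5) were among them, with 2 of 3 wall synthesis genes, 2 of 3 reactive oxygen genes and 6 of 10 polarity and signalling genes. The 6 members not called were CSLD3 (-0.09), RHD2 (-0.15), SCN1 (-0.40), GEF3 (-0.12), RHS6, a leucine-rich repeat kinase (-0.90), and IRE (-0.85). The libraries of both ploidies were fully apart for 10 members only (2.55% of all genes tested).

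The ploidies were unequal. In 2x esb1-1 plate roots 32 members were called lower, with a median of -1.86 and 38 members apart from wild type (1.85% of all genes tested were called lower, and 14.7% lay apart). In 4x 1 member was called, MRH6, with a median of -0.78 and 17 members at an unadjusted p under 0.05 (as had 6.09% of all genes tested; 0.177% of all genes tested were called lower). EXPA7 had 36.5, 33.8 and 35.99 CPM in 2x esb1-1, against 102, 74.99 and 161 CPM in 2x wild type, and 68.0, 60.2 and 51.6 CPM in 4x esb1-1, against 89.5, 60.4 and 132 CPM in 4x wild type. The 2x groups were apart and the 4x groups overlapped. PRP3 had 87.9, 77.5 and 67.8 CPM in 2x esb1-1, against 294, 244 and 489 CPM in 2x wild type, and 205, 180.0 and 191 CPM in 4x esb1-1, against 375, 188 and 520.2 CPM in 4x wild type. Again the 2x groups were apart and the 4x groups overlapped. LRX1 was apart in both ploidies, with 23.3, 21.7 and 20.7 CPM in 2x esb1-1, against 74.9, 64.5 and 153 CPM in 2x wild type, and 53.1, 39.98 and 50.5 CPM in 4x esb1-1, against 98.9, 57.9 and 117 CPM in 4x wild type. However, the test of the difference between the ploidies called 0 of 42 members (20 at an unadjusted p under 0.05, as had 3.5% of all genes tested), at a median difference of 1.04, so the effect of esb1-1 was not shown to differ between 4x and 2x. In that test 0.00983% of all genes tested were called.

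Averaged over ploidies, the largest fall in esb1-1 was that of extensin AT5G06640. It had 58.9, 44.4 and 31.1 CPM in 2x esb1-1, against 209, 199 and 517 CPM in 2x wild type, and 120.5, 87.6 and 110.2 CPM in 4x esb1-1, against 326, 173 and 431 CPM in 4x wild type. Each esb1-1 library was below each wild-type library, and the log2 fold change was -2.16 (SE 0.29; edgeR adjusted p = 1.11e-07). LRX1 fell by 1.54 (SE 0.26; adjusted p = 4.78e-05), RHS19 by 1.60 (SE 0.28; adjusted p = 0.000142), PRP3 by 1.52 (SE 0.31; adjusted p = 0.00103) and AT4G13390 by 1.78 (SE 0.34; adjusted p = 0.000551). EXPA7 fell by 1.16 (SE 0.26; adjusted p = 0.00275), XTH14 by 1.51 (SE 0.29) and COW1 by 1.28 (SE 0.29; adjusted p = 0.00375). In 2x alone the largest fall was that of extensin AT2G24980, at -2.83 (adjusted p = 6.68e-06). MRH6, the 1 member called in 4x, had 1.25, 2.40 and 2.90 CPM in 4x esb1-1, against 8.84, 7.59 and 10.07 CPM in 4x wild type, with no overlap (-2.02, SE 0.40; adjusted p = 0.0123).

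These falls lean on the third replicate of wild type. On plates, wild-type replicate 3 held the highest value of its group for 34 of 42 members in 2x and for 36 of 42 in 4x, while it was the highest for 24.8% and 28.9% of all genes tested. Without replicate 3 of both wild-type ploidies, an alternative chosen after seeing the data, 14 members were called lower in esb1-1. Leaving out 1 library at a time gave 26 to 36 calls, with the lowest count without replicate 3 of 4x wild type, and the library number as a covariate left 5. In chx25-3 the 2x plate replicate 3 held the highest value for 40 of 42 members. In the sum over members, 2x wild-type plate libraries stood at 5342, 5224 and 12030 CPM and 2x chx25-3 libraries at 5849, 5731 and 11880 CPM.

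**Figure D4:**
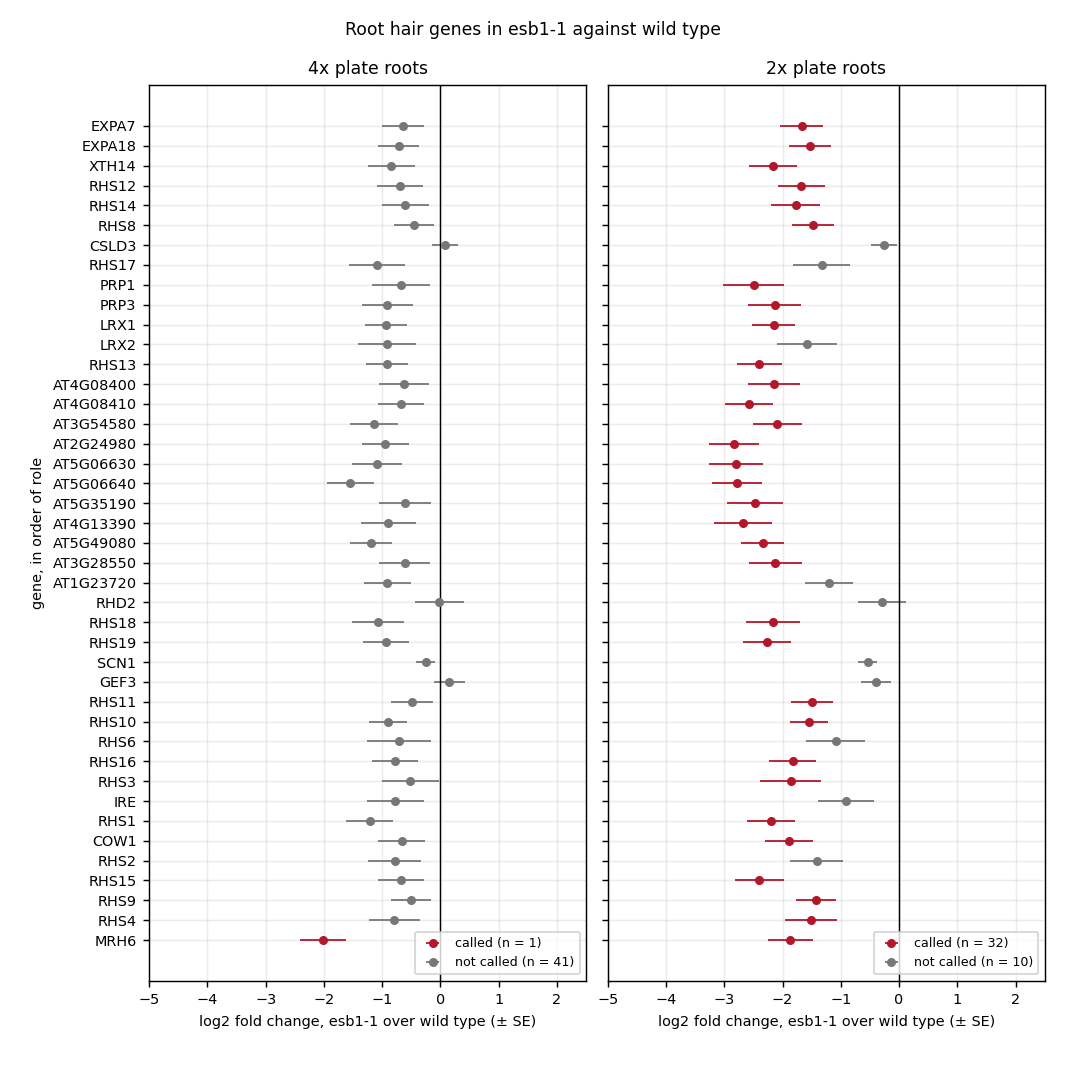
Log2 fold change (± SE) of each member in esb1-1 over wild type in plate roots, 4x on the left and 2x on the right, with called members in red and the others in grey. In 2x 32 members are called and in 4x 1 (MRH6), and most points lie below 0 in both panels.

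In esb1-1 soil roots 0 members were called (1 at an unadjusted p under 0.05, as had 4.77% of all genes tested, and 0 by DESeq2 and by limma-voom), with a median log2 fold change of 0.25 (0.831% of all genes tested were called in either direction). EXPA7 had 12.1, 15.9 and 16.6 CPM in 2x esb1-1 soil roots, against 16.9, 14.2 and 12.8 CPM in 2x wild type, and 11.3, 11.9 and 6.18 CPM in 4x esb1-1, against 6.60, 8.78 and 5.05 CPM in 4x wild type. The ranges overlapped in both ploidies. Tested directly, the plate effect of esb1-1 was more negative than its soil effect for 20 of 42 members (median difference -1.55; 1.04% of all genes tested were called negative). In esb1-1 plate roots the regulators RSL2 and LRL3 and 7 of 18 other hair growth genes fell too, and so did the endodermal gene ASFT, 1 of 10 markers of other root cells. The part of that marker in the result was not tested.

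In sos3-2 and chx25-3 roots no member was called in the fit used for all comparisons. In sos3-2 plate roots the median was -0.55, and 16 members had an unadjusted p under 0.05 (11% of all genes tested had one, and 0.0983% were called in either direction). DESeq2 called 2 members lower there (AT5G06640 and MRH6) and limma-voom 10, so the absence of calls depends on the tool. In chx25-3 plate roots the median was 0.04, with 1 member at an unadjusted p under 0.05 (18.1% of all genes tested), 0 called by DESeq2 and 1, RHS15, called higher by limma-voom (2.72% of all genes tested were called in either direction). In soil roots the medians were 0.07 in sos3-2 and 0.04 in chx25-3, with 0 members at an unadjusted p under 0.05 (2.21% and 1.04% of all genes tested) and 0 called by DESeq2 and by limma-voom in either line (0.0639% and 0.0295% of all genes tested were called).

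Genome doubling itself moved few members. In 4x against 2x wild-type plate roots 0 were called (1 at an unadjusted p under 0.05, as had 2.33% of all genes tested, and 0 by DESeq2 and by limma-voom), at a median log2 fold change of -0.05. Only 5 of all genes tested were called (0.0246%). The ranges of the members overlapped, as EXPA7 (89.5, 60.4 and 132 CPM in 4x against 102, 74.99 and 161 CPM in 2x) and AT4G13390 (229, 104.8 and 332 CPM in 4x against 129, 118 and 380 CPM in 2x) show.

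In wild-type soil roots the members leaned lower in 4x. The median log2 fold change was -0.63, and 41 of 42 members were negative (97.6%, against 49.8% of all genes tested). 14 members had an unadjusted p under 0.05 (as had 3.53% of all genes tested), and 18 had all 4x libraries below all 2x libraries (6.16% of all genes tested). None passed after adjustment, by edgeR, DESeq2 or limma-voom, and 10 of all genes tested were called (0.0491%). The study, with the same thresholds, reported more genes than this as different between 4x and 2x wild-type soil roots. It placed EXPA7 among the genes lower in 4x, and the genes it lists also include the members EXPA18, AT1G23720 and AT5G49080. The reason for this difference in calls was not tested. The study described EXPA7 as a hub of a co-expression cluster around root hairs and cell growth. Neo-tetraploid root hair mutants kept elevated leaf potassium there. It proposed that the hair changes are a consequence and not the primary cause. EXPA7 had 6.60, 8.78 and 5.05 CPM in 4x, against 16.9, 14.2 and 12.8 CPM in 2x, with no overlap (-1.10, SE 0.38; edgeR adjusted p = 0.93). PRP3 had 13.8, 10.4 and 11.03 CPM in 4x, against 21.5, 21.1 and 23.7 CPM in 2x, and RHS19 had 16.3, 15.3 and 13.3 CPM in 4x, against 28.96, 29.01 and 26.3 CPM in 2x. In the sum over members, 4x libraries stood at 785, 679 and 843 CPM and 2x libraries at 1205, 1364 and 1477 CPM. Each of these 6 libraries came from 1 plant.

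**Figure D5:**
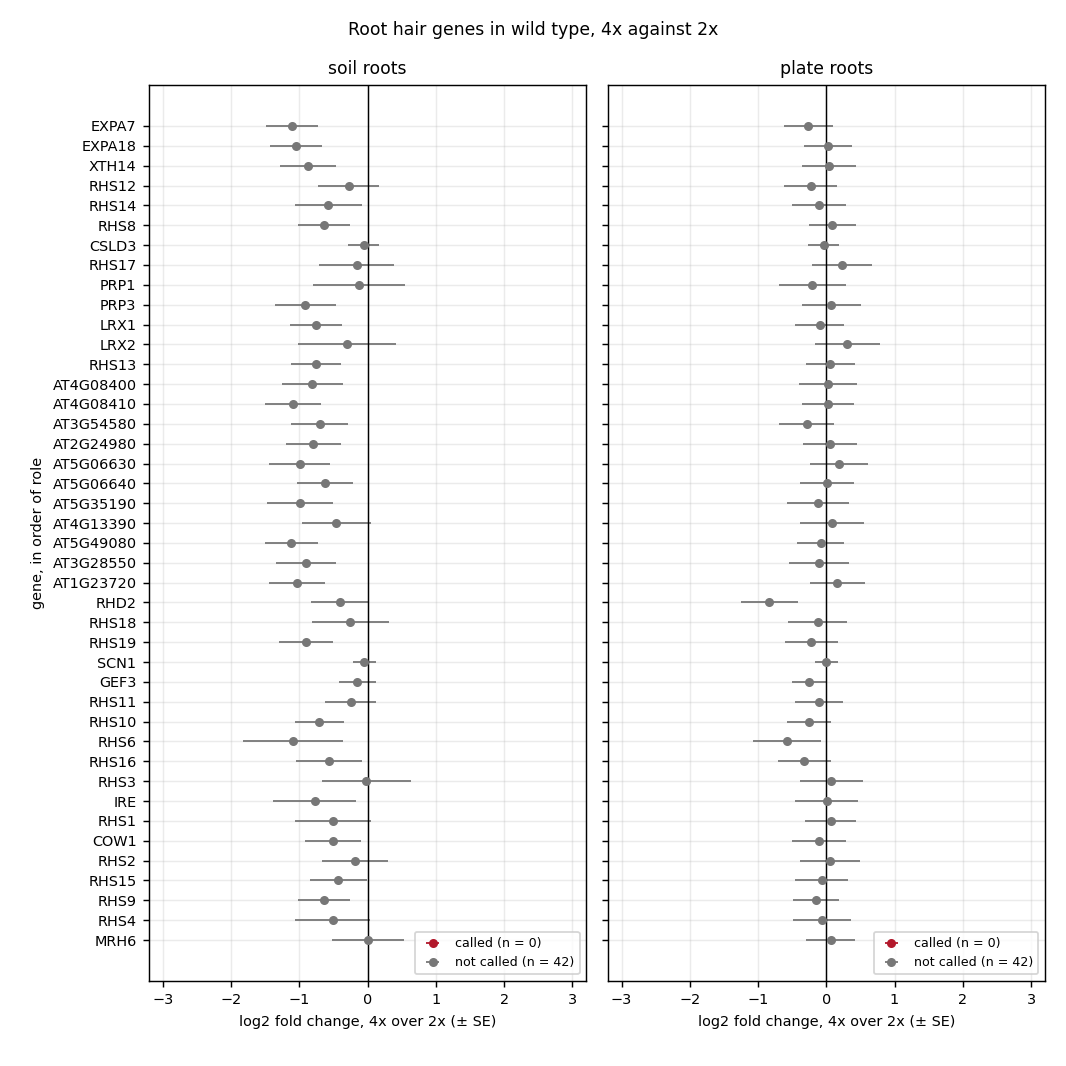
Log2 fold change (± SE) of each member in 4x over 2x wild type, soil roots on the left and plate roots on the right. No member is called in either panel. In soil 41 of 42 points lie below 0, and on plates the points lie on both sides of 0.

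Across genotypes, the ploidy effect in soil kept a negative median in each mutant: -0.55 in esb1-1, -0.30 in sos3-2, -0.44 in rhd6-3/rsl1-1 and -0.21 in chx25-3, with 0 members called in each (7 in esb1-1 and 3 in sos3-2 at an unadjusted p under 0.05, as had 5.62% and 4% of all genes tested). The rhd6-3/rsl1-1 median rests in part on members near 0 counts. Of all genes tested, 0.00491% were called in esb1-1, 0.00983% in sos3-2, 0.0197% in rhd6-3/rsl1-1 and 0.0246% in chx25-3. Averaged over the 5 genotypes, 1 member was called lower in 4x soil roots, extensin AT5G35190 (0.467% of all genes tested were called lower), at -1.01 (SE 0.26; edgeR adjusted p = 0.035). It had 9.18, 6.67 and 2.83 CPM in 4x esb1-1, against 9.53, 16.9 and 14.7 CPM in 2x esb1-1, and 5.96, 6.88 and 2.78 CPM in 4x wild type, against 13.2, 7.62 and 10.06 CPM in 2x wild type. In sos3-2 it had 7.34, 7.42 and 4.41 CPM in 4x, against 21.2, 6.78 and 10.6 CPM in 2x. In chx25-3 it had 5.66 and 7.58 CPM in 4x, against 6.30, 19.7 and 2.37 CPM in 2x, and in rhd6-3/rsl1-1 0.342, 0.371 and 0.124 CPM in 4x, against 1.37, 0.599 and 0.375 CPM in 2x. The ranges thus overlapped in sos3-2 and chx25-3 but not in the other 3 genotypes. In rhd6-3/rsl1-1 the ranges all but met, at 0.371 against 0.375 CPM, on few counts. Without rhd6-3/rsl1-1 in the average, chosen after seeing the data, 0 members were called.

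On plates the ploidy average called 0 members (12 at an unadjusted p under 0.05, as had 10% of all genes tested, 0 by DESeq2 and 3 by limma-voom), at a median of 0.39 (0.172% of all genes tested were called in either direction). Single mutants gave 3 calls. In esb1-1 plate roots AT4G08410 had 105.2, 61.7 and 95.8 CPM in 4x, against 24.2, 21 and 23.9 CPM in 2x, and AT2G24980 had 196, 123 and 153 CPM in 4x, against 51.6, 27.4 and 44.4 CPM in 2x. Both were clear of overlap, and both rose by 1.93 (SE 0.40 and 0.41; edgeR adjusted p = 0.0327 each), while 0.0295% of all genes tested were called higher. The median of the members in this comparison was 1.01, and for 32 of them all 4x libraries lay above all 2x libraries (11.5% of all genes tested). In chx25-3 plate roots RHD2 had 21.4, 32.2 and 17.5 CPM in 4x, against 1.38, 7.82 and 12.1 CPM in 2x, and was called higher (1.67, SE 0.44; adjusted p = 0.0226; 2% of all genes tested were called higher). In rhd6-3/rsl1-1 plate roots the median was 0.97 with 0 calls, on members near 0 counts (0.00983% of all genes tested were called). The test of whether ploidy acted differently in rhd6-3/rsl1-1 than in wild type called 0 members in plate roots (3 at an unadjusted p under 0.05, as had 3.75% of all genes tested) and 0 in soil roots (1 at an unadjusted p under 0.05, as had 1.48%), by edgeR, DESeq2 and limma-voom alike. Of all genes tested, 0.00491% were called in plate roots and 0.0147% in soil roots.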

How the data were processed

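The authors prepared 3′ mRNA libraries (QuantSeq) and quantified single-end reads over 81620 transcripts with Salmon; the Salmon version, transcript set and genome build are not given in the sources used here. The deposited per-sample files hold expected counts, which are fractional where a read fits several transcripts, and TPM values, which Salmon scales by effective length. A deposited gene table of TPM was not used.

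The expected counts of a gene's transcripts were added up and rounded. A gene entered the tests when 6 or more libraries had 2 CPM or more (20347 of 33681). CPM values printed are scaled by TMM factors; folds and shares left are ratios of pooled counts over pooled library sizes, folds against 0 counts use a floor of 3 counts over the group, and intervals are 95% and cover counting error only. All 86 grouped libraries entered one edgeR 4.0.16 quasi-likelihood fit (R 4.3.3) with a mean per group, and p-values were adjusted by Benjamini-Hochberg over all genes within a comparison. Calls needed an absolute log2 fold change of 0.5 or more besides an adjusted p under 0.05. DESeq2 1.42.0, limma 3.58.1 (voom on counts rebuilt from TPM), other size factors, no filter, root libraries alone, a replicate block, a library number covariate, summed extensins and leaving out each library were tried. The fits were tested on simulated data.

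The genes named are all 42 members with their roles; values per library are given for 12 members picked by role and for the called member with the largest change in each comparison. AT3G28550, AT1G23720, SCN1, PRP1 and RSL2 were given per library after their values were seen. The members and the lists of regulators, other hair growth genes and markers were chosen with earlier results of these data known. Same-numbered libraries did not deviate together throughout any comparison (r -0.258 to 0.517, with no comparison having every pair over 0.1), so the numbers were not taken as pairs. In wild-type plate roots, 4x against 2x, r was 0.517 and 0.397 for replicates 2 and 3 but -0.098 for replicate 1. No 2 libraries held the same values. The 2 libraries whose title and genotype label disagree entered no group.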

Additional observations from a re-analysis of the deposited data

Results flagged for a closer look

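The effect of rhd6-3/rsl1-1 differed between plate and soil roots, by a test of the difference itself, for 21 members. Among the 12 members picked by role, the plate effect minus the soil effect was -4.01 for EXPA7, -3.59 for XTH14, -4.58 for PRP3, -4.31 for LRX1, -2.83 for RHS19 and -3.67 for COW1, on the log2 scale. The effect of esb1-1 differed between plate and soil roots for 20 members, by the same kind of test. Medium, plant age and the level of the members in wild type all change between these root sets and cannot be told apart.

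A soil shoot library that the labels put in no group held 60.05 CPM of the 42 members in sum, before TMM scaling (437 counts, with 26 of 42 members detected). The wild-type shoot libraries held 37.97 to 51.9 CPM in 4x and 41.6 to 47.5 CPM in 2x, and all grouped shoot libraries 26.5 to 52.5 CPM.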

How the results depend on the processing

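No count changed direction. Direction in single genes was checked for called values only, and there only RHS6 and IRE turned, both called lower in soil roots than in shoots by limma-voom. The library number as a covariate, which on plates runs with the groups, left 22 calls in 2x and 23 in 4x rhd6-3/rsl1-1 plate roots, 0 for the plate and soil difference, 5 for esb1-1 and for the 6 comparisons of sos3-2, esb1-1 and chx25-3 together, 21 for wild-type soil against plate roots, 3 for the ploidy average in soil and 0 over the 8 ploidy comparisons of mutants, which had 3 calls in the fit reported. Extensins summed into 1 feature left 32 features, with 17 calls in 4x rhd6-3/rsl1-1 soil roots, 13 for the plate and soil difference, 0 for the ploidy average in soil and 1 over the 8 ploidy comparisons. Limma-voom gave 36 for the plate and soil difference, 3 and 6 for the ploidy averages on plates and in soil, and 12 over the 8 ploidy comparisons. DESeq2 gave 6 for the ploidy average in soil and 7 over the 8 ploidy comparisons. Root libraries alone gave 1, 2 and 9 for the ploidy averages on plates and in soil and the 8 ploidy comparisons, and no filter gave 5 over the 8 ploidy comparisons. The replicate block gave 5 for the ploidy average in soil and 7 over the 8 ploidy comparisons and moved no other count by over 1.5 times. The labels give no pairing, and in no comparison did every same-numbered pair deviate together. Chosen after seeing the data, esb1-1 gave 14 calls on plates without wild-type replicate 3 of both ploidies and 1 in 4x alone, and the ploidy average in soil gave 0 without rhd6-3/rsl1-1. The cause was not tested for any of these.

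Leaving out 1 library at a time gave 35 to 39 calls in 2x and 38 to 40 in 4x rhd6-3/rsl1-1 plate roots, 27 to 29 in 2x and 21 to 28 in 4x soil roots, 16 to 22 for the plate and soil difference, 26 to 36 for esb1-1 plate roots, 26 to 42 over the 6 comparisons of other mutants, 38 to 40 for wild-type soil against plate roots and 40 to 41 for soil roots against shoots. The ploidy counts were 0 to 0 in wild type in both media and for both differences between rhd6-3/rsl1-1 and wild type, 0 to 2 and 0 to 3 for the averages on plates and in soil, and 1 to 4 over the 8 ploidy comparisons. Of 924 values of single genes under alternatives, 11 lost a call and 1 gained one (IRE in 4x soil roots, -4.79 by DESeq2). The 11 lost were RHD2, GEF3 and IRE in rhd6-3/rsl1-1 plate roots; besides the values given with the results, the covariate gave -3.62, -4.06 and -3.76 in 2x, and -3.22 for GEF3 and -3.94 for IRE in 4x. Values under 3 counts, such as IRE in soil, are limited by depth.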

Other observations

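A soil root library that the labels put in no group held 1221 CPM of the 42 members in sum, before TMM scaling (9361 counts, with 42 of 42 members detected). The grouped soil root libraries held 632 to 2253 CPM.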
